A study of Mus musculus with 4 samples.

Results

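The results concern 3 mouse genes, Adnp, its same-strand neighbour Dpm1 on chromosome 2, and the Adnp paralogue Adnp2, taken from a table of read counts for 21936 genes. All 3 were among the 14722 genes with enough counts to be tested. They were picked by name with the difference between TSSK2-IP and control IgG-IP already known, so that difference is given for them as a description and carries no test. Germ cells were released from the testes of adult C57BL/6 mice, fixed with a cross-linker, broken open by lysis and sonication, and the low-speed pellet was precipitated with an antibody to TSSK2 (2 libraries) or, as the negative control, with mouse IgG (2 libraries). TSSK2 is a testis-specific kinase of the late chromatoid body, a granule of elongating spermatids. No other genotype or treatment is given for the mice, both groups went through the same cross-linking, and rRNA was not removed. Nothing says whether libraries of a group came from separate animals, so p-values measure only the spread between these libraries, which may be technical.

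Adnp, activity-dependent neuroprotective protein, is a nuclear protein with zinc fingers and a homeodomain. It joins the remodeller Chd4 and heterochromatin protein 1 in the ChAHP complex, which holds chromatin locally closed, and a short stretch of it is known for binding microtubule end proteins. Adnp2 has the same kind of zinc fingers and homeodomain. Dpm1 is the catalytic subunit of dolichol phosphate mannose synthase in the endoplasmic reticulum. Its product hands mannose to N-glycans, to GPI anchors and to protein O- and C-mannosylation, and GPI anchors hold many proteins on the surface of sperm.

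The total count of a library was between 3938922 and 9858941, and 1 count equalled 0.156 to 0.230 normalized CPM (counts relative to the library total, scaled with edgeR's TMM factors). A level of 3 counts, the most that a count of 0 allows for counting error alone, was 0.468 to 0.689 normalized CPM. The control libraries lay further apart than the TSSK2-IP libraries, with an SD of the log2 difference between replicates of 1.08 against 0.47 over the 14722 genes tested. All 8 spermatid markers, Prm1 and Akap4 among them, were counted in every library, and their summed level was 4390 and 4065 normalized CPM in TSSK2-IP against 10501 and 5237 in control IgG-IP. The gap in the sum lay mainly in Akap4 (1164 and 1146 against 5879 and 1823) and Prm2 (1363 and 1103 against 2788 and 1689). The median log2 fold change of the 8 markers was -0.05, and 0 were called in either direction. The summed level of 5 Sertoli cell markers was between 12.6 and 43.3 normalized CPM in the 4 libraries, that of 5 Leydig cell markers between 14.4 and 35.4, and that of 3 peritubular or vascular markers between 12.5 and 25.7. Among 4 markers of blood cells and macrophages it was between 8.11 and 19.2. The defining markers Insl3 of Leydig cells and Hba-a1 of red cells were each at 0 in 1 control library. For Sertoli and Leydig markers the lowest sum was in control IgG-IP replicate 1, while that library had the highest spermatid sum, and the part of these differences in any result below was not tested.

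In the annotation GENCODE vM21, on the build GRCm38 that the authors mapped to, Adnp (ENSMUSG00000051149) lies on chromosome 2 from 168180986 to 168207112 and Dpm1 (ENSMUSG00000078919) from 168209048 to 168230591, both on the minus strand. Dpm1 is upstream, and 1935 bases separate its end from the start of Adnp. Another gene on that strand, Gm20716, runs from 168180986 to 168230364 and joins them. Its single transcript, annotated as a target of nonsense-mediated decay, splices from the last exon of Dpm1 into the Adnp exon that holds the Adnp start codon. The junctions are shown because they are what separates the RNA of Adnp from that of Gm20716. In the order shown, they belong to the Adnp transcript of 4 exons, the Adnp transcript of 5 exons and Gm20716. Lower case marks the end of the upstream exon, and capitals mark the start of the shared Adnp exon, in which ATG is the start codon, all written 5′ to 3′.
Adnp, 4 exons: cgaggccgagccaagAAACTATGTTCCAAC
Adnp, 5 exons: tgtcaattcacaccgAAACTATGTTCCAAC
Gm20716: acacatgagccaaagAAACTATGTTCCAAC
The introns removed span 17179 bases in the first transcript, 15205 in the next and 21036 in Gm20716. The next lines show the genome around the splice donor that Gm20716 uses inside the longest form of the last Dpm1 exon and around the Adnp acceptor that all 3 transcripts use, with the intron's first or last 2 bases in capitals.
Donor, chr2:168210407-168210436, minus strand: ccaaagGTaagatgcatttaatgtggatct
Acceptor, chr2:168189389-168189418, minus strand: gacttaaatttttttttccaatAGaaacta

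Gm20716 has no exon base of its own. Its 5288 exon bases consist of 4393 that are also exons of Adnp and 895 that are also exons of Dpm1. Adnp has 5350 exon bases in all, so 82.1% of them are shared, including all 3324 coding bases. The 957 unshared bases are the first exon, 539 bases of 5′ untranslated sequence, and a stretch of 418 bases that starts 2338 bases downstream of the gene's first base and belongs to an exon of the 5-exon transcript and to a retained-intron transcript. Dpm1 has 7489 exon bases, of which 12.0% are shared. Of its 785 coding bases 5 are unshared, and most of its 6594 unshared bases lie in retained-intron transcripts (a run of 2941 and one of 1479) and in the longest 3′ end (1383). Adnp2 (ENSMUSG00000053950), on the minus strand of chromosome 18 from 80126311 to 80151482, shared none of its 5012 exon bases with another counted gene.

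**Figure D1:**
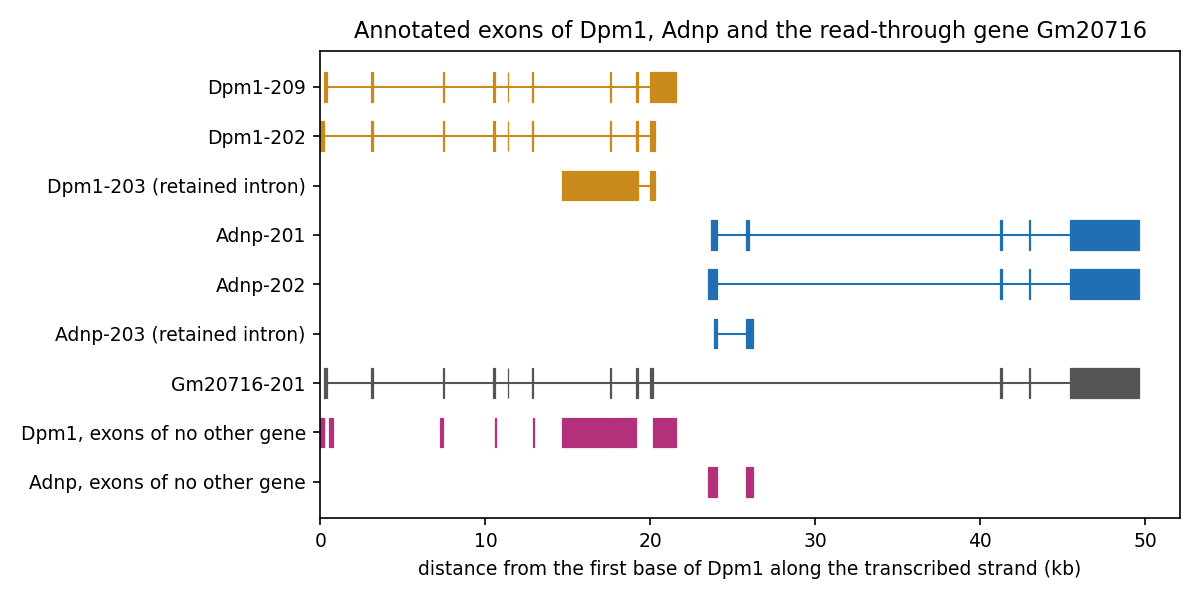
Exons (boxes) and introns (lines) of annotated transcripts, drawn along the transcribed strand as distance in kb from the first base of Dpm1. The bottom rows show the exon bases that belong to no other counted gene, which are 957 bases near the start of Adnp and 6594 bases of Dpm1.

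Gm20716 held 5 and 1 counts in TSSK2-IP against 10 and 8 counts in control IgG-IP. Although it contains every coding base of Adnp, its counts were below those of Adnp in every library, and fragments in the shared exons were thus not counted for Gm20716 in the numbers that Adnp reached. By default, featureCounts leaves uncounted a fragment that lies equally in exons of several genes. The setting used is not given in the sources used here. Under the default, and with the same exons in the authors' annotation, Adnp counts would come only from fragments that reach its 957 unshared bases. Dpm1 counts would likewise come only from fragments that reach its 6594 unshared bases. Whether this held, or fragments in the coding exons were counted for Adnp, was not tested. The annotation the authors counted with is a later release than vM21.

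Adnp had 608 and 570 counts in TSSK2-IP against 32 and 30 in control IgG-IP. In normalized CPM these were 126.0 and 108.5 in TSSK2-IP against 4.99 and 6.89 in control IgG-IP, or 117.3 ± 12.4 and 5.94 ± 1.34 (SD, n = 2 each). The groups did not overlap, and the lower TSSK2-IP library was 15.7-fold above the higher control library, while libraries of one group differed by at most 1.38-fold. Each TSSK2-IP library was above each control library for 27.3% of all genes tested, and the members were chosen with their difference known. The fitted log2 fold change was 4.31 (standard error 0.48), the 8th highest of the 14722 genes tested. Leaving out each library in turn gave 4.14 to 4.48.

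Dpm1 had 316 and 292 counts in TSSK2-IP against 88 and 78 in control IgG-IP. Its level was 65.5 and 55.6 normalized CPM in TSSK2-IP against 13.7 and 17.9 in control IgG-IP, with means of 60.5 ± 7.03 and 15.8 ± 2.96 (SD, n = 2 each). Here too the groups were apart, with the lower TSSK2-IP library 3.10-fold above the higher control library. The log2 fold change was 1.94 (standard error 0.41) and ranged from 1.81 to 2.07 with each library left out in turn. Of the 785 coding bases of Dpm1, 780 are shared with Gm20716, and which exons the Dpm1 counts came from was not tested.

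Adnp2 had 206 and 235 counts in TSSK2-IP against 301 and 131 in control IgG-IP, which equalled 42.7 and 44.7 normalized CPM against 47.0 and 30.1. Both TSSK2-IP libraries lay between the control libraries, so the groups overlapped. Means were 43.7 ± 1.42 and 38.5 ± 11.9 normalized CPM (SD, n = 2 each), and the log2 fold change was 0.18 (standard error 0.40). The sign depended on the control library, at 0.59 when control IgG-IP replicate 1 was left out and -0.17 when replicate 2 was. In these bulk precipitates, fewer cells of a type and less RNA per cell cannot be told apart. No library of the pellet before precipitation was used, so the level of an RNA there was not measured.

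**Figure D2:**
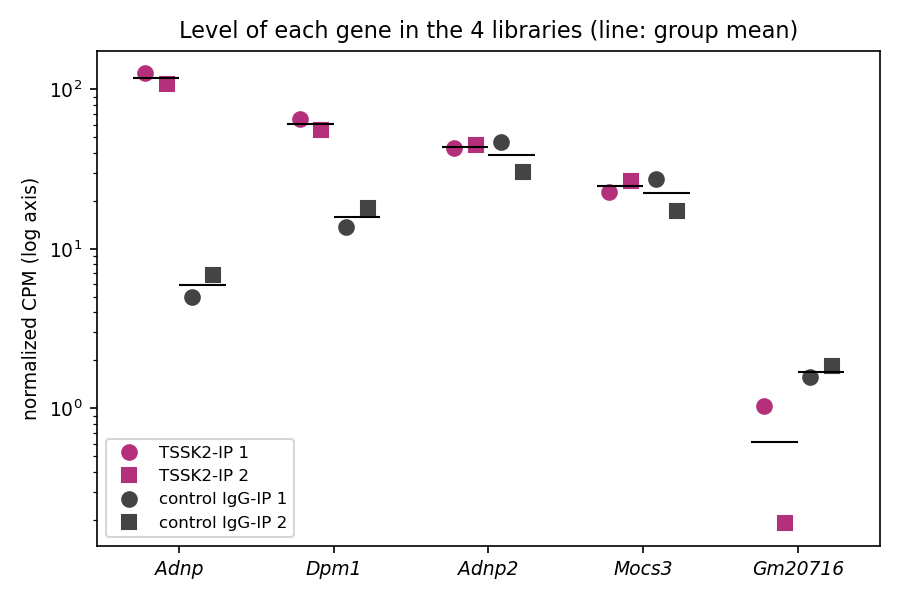
Normalized CPM on a log axis for Adnp, Dpm1, Adnp2, the neighbour Mocs3 and the read-through gene Gm20716, with 1 point per library and a line at the mean of each group of 2. Adnp and Dpm1 are separated between the groups, Adnp2 and Mocs3 overlap, and Gm20716 stays below 2 normalized CPM in all libraries.

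Ratios of counts within a library do not depend on the scaling between libraries. Adnp had 1.92 and 1.95 times as many counts as Dpm1 in TSSK2-IP against 0.364 and 0.385 times as many in control IgG-IP. The ratio of Adnp to Adnp2 was 2.95 and 2.43 in TSSK2-IP against 0.106 and 0.229 in control IgG-IP. Between Dpm1 and Adnp2 it was 1.53 and 1.24 in TSSK2-IP against 0.292 and 0.595 in control IgG-IP. None of these 3 ratios overlapped between the groups. The members were chosen with their difference known, so this describes these libraries only.

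Levels of different genes were compared per length, as normalized CPM per kilobase of exon. Over all annotated exon bases, control IgG-IP had a mean of 7.69 for Adnp2, 2.11 for Dpm1 and 1.11 for Adnp, and the 3 genes did not overlap in either control library. In TSSK2-IP the mean was 21.9 for Adnp, 8.72 for Adnp2 and 8.08 for Dpm1, and the values of Adnp2 (8.52 and 8.92) and Dpm1 (8.75 and 7.42) overlapped. With the length restricted to unshared exon bases, Adnp was at 122.5 in TSSK2-IP against 6.21 in control IgG-IP on this scale, while Dpm1 was at 9.18 and 2.40. Its place in control IgG-IP thereby changed from below Dpm1 to above it, with libraries at 5.22 and 7.20 for Adnp and 2.08 and 2.72 for Dpm1. The level of Adnp per length therefore depended on which exons were taken to contribute counts. The fold change of Adnp between the groups is the same for either length by arithmetic, since both divide the same counts. It does not give the fold of the shared exons or of the unshared exons alone.

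Over the whole table, 102 of 14722 genes (0.693%) were called higher in TSSK2-IP, that is, at least 2-fold with an adjusted p no higher than 0.05 (quasi-likelihood test of edgeR, Benjamini-Hochberg adjustment). For genes lower by the same measure the number was 0 (0%), and 1228 genes were higher and 720 lower at an unadjusted p under 0.05. DESeq2 called 1 gene lower. Adnp and Dpm1 were among the 102, and Adnp2 was not, which says nothing beyond their choice. Adnp stood 6th of the 102 by log2 fold change and Dpm1 stood 102nd. Adnp was also called in all 11 alternatives, which refit the same libraries and so test nothing further. Dpm1 was called in 6 of the 11 and not with DESeq2's size factors, upper-quartile normalization, a minimum of 10 counts in every library, or without either TSSK2-IP library.

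The centred profile over the 4 libraries (log2 CPM minus the gene's mean) was used to name the genes most like each member, by Euclidean distance among the genes tested. Nearest to Adnp were Olfr733 (distance 0.33), Camkmt (0.58), Olfr161 (0.69), Olfr735 (0.71) and Olfr25 (0.75), that is, 4 olfactory receptors and a calmodulin methyltransferase, with symbols as in the annotation. Olfr733 had 35.2 and 30.4 normalized CPM in TSSK2-IP against 1.40 and 2.30 in control IgG-IP, a log2 fold change of 4.16. For all 5 genes, as for Adnp, each TSSK2-IP library lay above each control library, which follows from their choice by likeness to Adnp. The nearest profiles to Dpm1 were Cenps (0.0069), a kinetochore gene, Slc25a21 (0.12), a mitochondrial carrier, Vmn2r7 (0.13), Mplkip (0.17) and Socs4 (0.17). Those nearest to Adnp2 were Dera (0.036), Braf (0.042), Sp2 (0.056), Stpg2 (0.057) and Ankrd12 (0.061). With 4 libraries such a likeness describes these libraries only.

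Both genes of the pair lay next to genes whose groups overlapped or that were not called. Mocs3, a gene for a sulfur carrier activator that starts 30 bases from Dpm1 on the opposite strand, had 22.6 and 26.6 normalized CPM in TSSK2-IP against 27.3 and 17.2 in control IgG-IP, with a log2 fold change of 0.14 (standard error 0.41; adjusted p = 0.905 by edgeR). On the other side, Pard6b, a cell polarity gene, had only 5 to 11 counts per library. Within 500 kb of Adnp and Dpm1 the table held 9 other protein-coding genes, of which 7 were tested and 0 were called in either direction (edgeR; 0 higher and 1 lower at an unadjusted p under 0.05, and 0 called with DESeq2). Their log2 fold changes ran from -1.07 (Atp9a) to 0.86 (Ripor3), with a median of -0.02, the same as that of all genes tested. Without control IgG-IP replicate 2, Kcng1 and Atp9a were called lower.

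The locus of Adnp2 holds relatives of the genes beside Adnp, with Pard6g next to it where Adnp has Pard6b, and Kcng2 further on where Adnp has Kcng1. Of 9 other protein-coding genes within 500 kb, 7 were tested and 0 were called (edgeR; 2 higher and 0 lower at an unadjusted p under 0.05, and 0 called with DESeq2). Their log2 fold changes ran from -0.16 (Txnl4a) to 1.42 (Pqlc1), with a median of 0.60. Pard6g had 17.8 and 23.4 normalized CPM in TSSK2-IP against 13.4 and 7.35 in control IgG-IP (log2 fold change 0.98, standard error 0.45; adjusted p = 0.373 by edgeR). Rbfa, the nearest gene on the other side, had 13 to 24 counts per library and a log2 fold change of 0.35 (standard error 0.71; adjusted p = 0.855 by edgeR). With control IgG-IP replicate 1 left out, Pard6g was called higher. With replicate 2 left out, Pqlc1 and Gm16286 were, the last of which overlaps Txnl4a on the same strand.

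**Figure D3:**
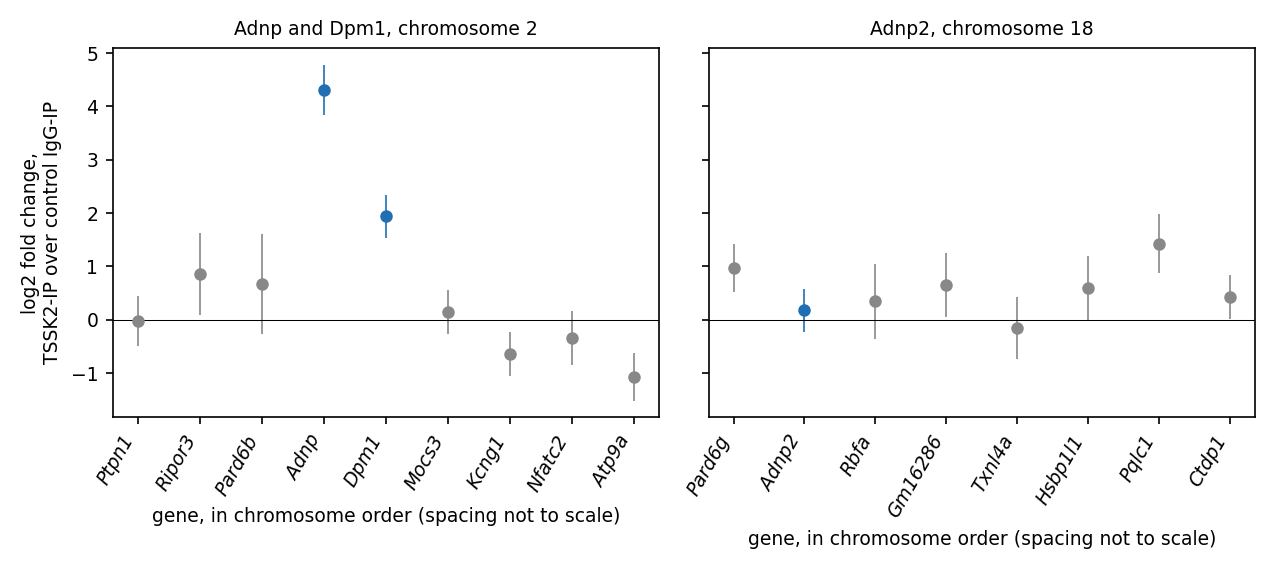
Log2 fold change of TSSK2-IP over control IgG-IP, with standard errors, for the tested protein-coding genes within 500 kb of Adnp and Dpm1 and of Adnp2, in chromosome order. The members (blue) are at 4.31, 1.94 and 0.18, and 0 of the 14 neighbours (grey) were called.

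The pair was set beside other close pairs. The tested protein-coding genes formed 1621 same-strand neighbour pairs with a gap of at most 5 kb. In 35 of them (2.16%) both genes had at least 2-fold more in TSSK2-IP, and in 2 both were called higher, Adnp with Dpm1 and the olfactory receptors Olfr979 with Olfr980. Since Adnp and Dpm1 were chosen for their difference, this places the pair and tests nothing.

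Exon sharing, which the choice of genes did not use, was then counted for all tested genes. Among 574 genes, clustered protocadherins included, that share any exon base on the same strand with another counted gene, 35 (6.10%) were called higher. Of 14136 genes that share none, 66 (0.467%) were. The 35 include Adnp and Dpm1, chosen with their difference known, and many clustered protocadherins. For genes that share any exon base, the share without these was not computed. Of the 84 genes with at least 50% of their exon bases shared, 14 (16.7%) were called and the median log2 fold change was 1.30. Apart from protocadherins, whose clustered genes share 3′ exons, the class held 70 genes. Of these, 5 (7.14%) were called and the median log2 fold change was 0.96. The 5 called were Adnp, Ctnnd1, Glcci1, Nupl1 and Rbm4, with 55.4% to 82.1% of their exon bases shared. Adnp had the highest log2 fold change of these 5 and the fewest unshared bases. The shares that follow are for the whole class, with protocadherins and Adnp in it. The called share was 35.7% in the class and 6.06% over all genes when control IgG-IP replicate 1 was left out, and 56.0% and 18.5% when replicate 2 was. Without TSSK2-IP replicate 1 it was 7.14% and 0.150%, without TSSK2-IP replicate 2 it was 9.52% and 0.218%, and with upper-quartile normalization it was 2.38% and 0.136%. In the fit with no filter on low counts it was 27.4% and 1.91%. The threshold of 50% was set after the overlap with Gm20716 had been seen, and the part of exon sharing in the difference of Adnp was not tested.

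**Figure D4:**
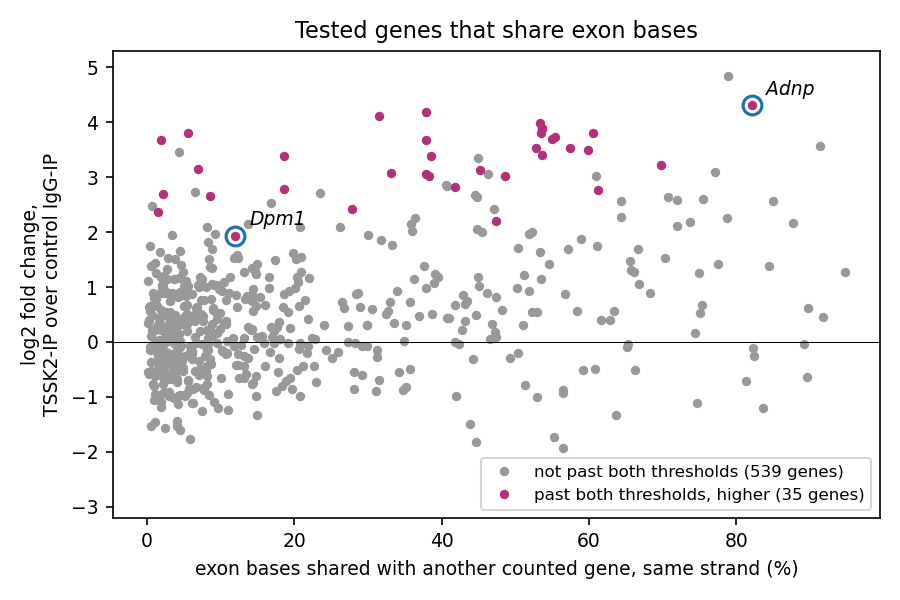
Log2 fold change of TSSK2-IP over control IgG-IP against the percent of exon bases shared with another counted gene on the same strand, for the 574 tested genes that share any. Adnp (82.1%) and Dpm1 (12.0%) are circled, and the 35 genes past both thresholds are in colour.

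Shared sequence outside the locus was not found for the members. With stretches of at least 150 bases and 97% identity, the mRNAs of Adnp and Dpm1 matched no other annotated gene than Gm20716, and that of Adnp2 matched none. Between Adnp and Adnp2 there was no match at an E value of 1e-05. The mRNAs of these paralogues have the same layout, with 4 exons and most of the sequence in 1 long exon, of 4187 bases in Adnp and 4684 in Adnp2. The longest protein-coding mRNA of Dpm1 has 9 exons and 2293 bases. The GC content of the exons was 47.8% in Adnp, 44.5% in Dpm1 and 49.9% in Adnp2, at the 43.3rd, 25.8th and 54.4th percentile of the genes tested, and exon length was at the 59.9th, 78.4th and 56.0th percentile.

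The promoters of Adnp and Dpm1 (RefSeq, GRCm38.p6, from 250 bases before to 50 after the gene's start) have a run of 9 bases in common, TGACGTAAG, which resembles the cyclic AMP response element. It is shown because it is the longest run the 2 windows share, with the run in capitals, and it begins 33 bases before the RefSeq start of Adnp, in the opposite orientation, and 13 bases before that of Dpm1. The RefSeq start of Dpm1, at 168230379, lies 212 bases inside the gene as GENCODE gives it, so the run lies within the GENCODE gene and partly in an annotated Dpm1 exon.
Adnp, chr2:168207126-168207155, minus strand: taatgagtcgCTTACGTCActtccgctctt
Dpm1, chr2:168230373-168230402, minus strand: ccgtgtcggaTGACGTAAGtccgcttccgg
On either strand, 69 of 32851 promoters (0.210%) hold these letters. That share is for this run alone, and how often 2 such windows share some run of 9 bases was not counted. The run was picked after reading both promoters, and a match is not evidence of binding.

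The proteins that bind Adnp were represented by 10 genes, all tested, of which 0 were called in either direction by edgeR (2 higher and 2 lower at an unadjusted p under 0.05, and 0 called with DESeq2). The median log2 fold change was 0.08, against -0.02 for all genes tested. Mapre1, a microtubule end protein, had 59.5 and 61.5 normalized CPM in TSSK2-IP against 25.9 and 23.0 in control IgG-IP, with a log2 fold change of 1.31 (standard error 0.39; adjusted p = 0.205 by edgeR). Cbx5, which encodes heterochromatin protein 1 alpha, had 226.6 and 252.9 against 132.5 and 72.8, with a log2 fold change of 1.22 (adjusted p = 0.349 by edgeR). The remodeller subunit Smarcc2 went the other way, at 164.0 and 155.3 against 673.7 and 216.7 and a log2 fold change of -1.48 (adjusted p = 0.359 by edgeR). For Chd4, the ATPase of the ChAHP complex, the log2 fold change was -0.75 (standard error 0.68). With control IgG-IP replicate 1 left out, the log2 fold change was 1.45 for Mapre1 and 1.78 for Cbx5. With replicate 2 left out, it was 1.15 for Mapre1, 1.57 for Cbx1, -1.13 for Chd4, -1.96 for Smarca4 and -2.15 for Smarcc2. These genes were selected by those fits, whose spread rests on the TSSK2-IP libraries alone.

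Other zinc-finger homeobox genes, the structural class of Adnp, numbered 12, of which 11 were tested and 0 were called by edgeR (1 higher and 0 lower at an unadjusted p under 0.05, and 0 called with DESeq2). Their median log2 fold change was -0.15. Zeb1, a repressor known from epithelial to mesenchymal transition, had 112.6 and 107.7 normalized CPM in TSSK2-IP against 40.4 and 34.2 in control IgG-IP. The log2 fold change of Zeb1, 1.56 with a standard error of 0.42, had an adjusted p of 0.142 by edgeR, and it was called when either control library was left out. Zhx1 had 58.7 and 55.0 against 148.8 and 70.1 (log2 fold change -0.95; adjusted p = 0.394 by edgeR) and Zfhx4 a log2 fold change of -0.67. With control IgG-IP replicate 1 left out, the log2 fold change was -1.18 for Zfhx4 and -1.12 for Tshz2. With replicate 2 left out, it was -1.46 for Zhx1.

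Around Dpm1, 13 genes supply dolichol phosphate mannose, from the mannose phosphates and GDP-mannose to dolichol itself. Of these 12 were tested, 0 were called by edgeR (0 at an unadjusted p under 0.05 in either direction, and 0 called with DESeq2), and the median log2 fold change was 0.02. Dpm2, a membrane subunit of the same synthase, had 11.6 and 14.8 normalized CPM in TSSK2-IP against 8.43 and 6.66 in control IgG-IP, with a log2 fold change of 0.80 (standard error 0.46; adjusted p = 0.450 by edgeR). Dpm3, the other membrane subunit, had too few counts for the test. Dolpp1, a dolichyl diphosphate phosphatase, was at 0.81 and Mpi, which makes mannose 6-phosphate, at -0.93 (adjusted p = 0.416 and 0.457 by edgeR). The log2 fold change of Dpm2 was 1.05 without control IgG-IP replicate 1. Leaving out replicate 2 instead gave log2 fold changes of 1.04 for Gmppb, -1.55 for Mpi and -1.01 for Nus1.

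The enzymes that use dolichol phosphate mannose comprise 18 genes for N-glycans, GPI anchors and O- and C-mannosylation, of which 17 were tested, 1 was called higher and 0 lower (edgeR; 4 higher and 0 lower at an unadjusted p under 0.05). The median log2 fold change was -0.04. The gene called was Pigv, which adds the second mannose of the GPI anchor. It had 74.4 and 63.6 normalized CPM in TSSK2-IP against 12.0 and 18.2 in control IgG-IP, with a log2 fold change of 2.20 (standard error 0.42; adjusted p = 0.0280 by edgeR). Without TSSK2-IP replicate 1 or 2 its log2 fold change was 2.08 or 2.30 and it was not called (adjusted p = 1.000 for both by edgeR). Next by p came Tmtc2 and Pigm, with log2 fold changes of 1.30 and 0.96 (adjusted p = 0.268 and 0.357 by edgeR). Dpy19l2, a C-mannosyltransferase relative known from acrosome attachment in spermatids, was at -0.85 (adjusted p = 0.526 by edgeR). With control IgG-IP replicate 2 left out, the log2 fold change was -1.47 for Dpy19l2, -1.31 for Alg3, -1.33 for Alg9, -1.17 for Pigb and -1.50 for Pomt1. In that fit it was 2.45 for Pigv, 1.94 for Tmtc2, 1.74 for Tmtc3 and 1.35 for Dpy19l3. With replicate 1 left out, it was 1.98 for Pigv and 1.51 for Pigm.

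A further 19 genes of GPI anchor assembly and remodelling were in the table and tested, of 20 listed, and 0 were called by edgeR (2 higher and 1 lower at an unadjusted p under 0.05, and 0 called with DESeq2). Their median log2 fold change was 0.32, and 13 lay above 0 and 6 below. Pgap1, which removes an acyl chain from the finished anchor, had 64.3 and 76.3 normalized CPM in TSSK2-IP against 15.9 and 29.4 in control IgG-IP (log2 fold change 1.64, standard error 0.43; adjusted p = 0.134 by edgeR). Pigk, the protease of the GPI transamidase, was at 1.30 and Pigc, of the first step, at -1.27 (adjusted p = 0.245 and 0.276 by edgeR). With control IgG-IP replicate 1 left out, the log2 fold change was 1.31 for Pgap1, 1.06 for Pigk and -2.14 for Pgap3. With replicate 2 left out, it was 2.07 for Pgap1, 1.60 for Pigk, 1.44 for Pigg and 1.09 for Pgap2. In that fit it was -1.80 for Pigc, -1.47 for Pigo and -1.70 for Pigt. Each TSSK2-IP library was above each control library for 5 of 10 binding partners, 2 of 11 homeobox genes, 4 of 12 supply genes, 6 of 17 users and 8 of 19 anchor genes, and this order held for 27.3% of all genes tested. The opposite order held for 3, 1, 1, 2 and 2 genes of these lists and for 21.6% of all genes tested.

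**Figure D5:**
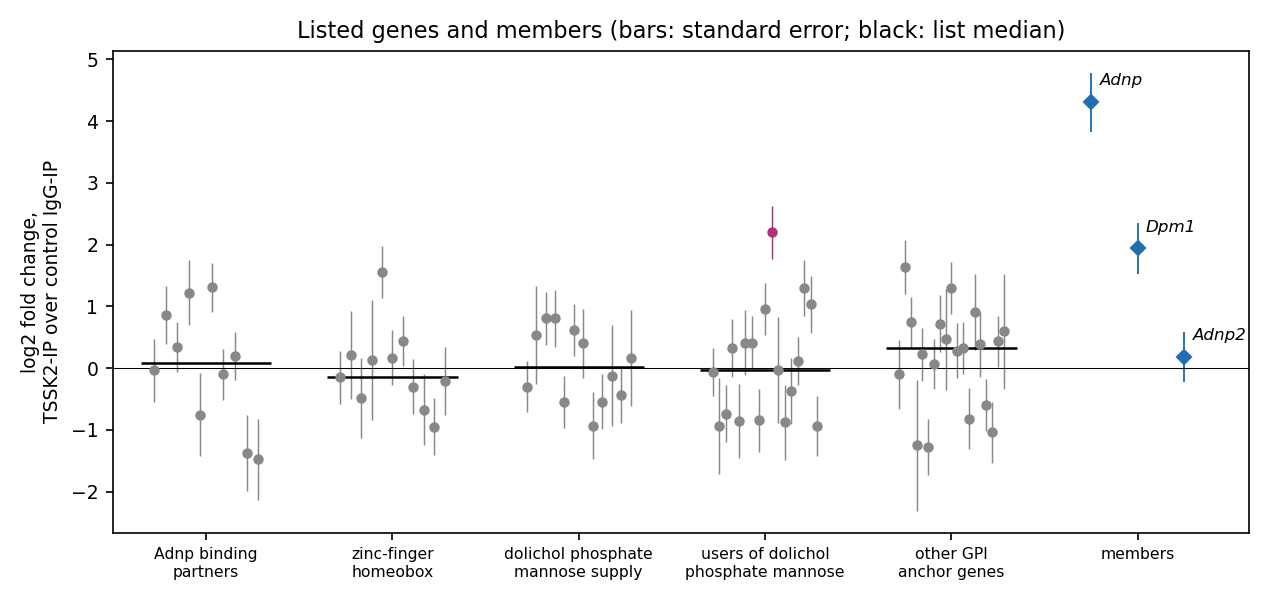
Log2 fold change of TSSK2-IP over control IgG-IP, with standard errors, for the listed genes that were tested (grey, Pigv past both thresholds in colour) and for Adnp, Dpm1 and Adnp2 (blue). List medians (black lines) lie between -0.15 and 0.32, and Pigv is at 2.20.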

How the data were processed

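The authors deposited raw counts per gene, whole numbers without normalization. Per the submitters' processing notes and the methods, these came from reads trimmed with Trimmomatic 0.39, STAR alignment to GRCm38 and featureCounts 2.0.3. Strand setting and treatment of reads over several genes are not given in the sources used here. Genes were named from GENCODE vM21, in which 21817 of 21936 identifiers were found and 119 were not. The members and lists were chosen with earlier results of these data known.

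Counts were fitted with edgeR 4.0.16 in R 4.3.3 (filterByExpr, TMM, glmQLFit, glmQLFTest) and called past a log2 fold change of 1 in size with an adjusted p no higher than 0.05. The log2 CPM used a prior count of 2. The rule for names took the members, the called or else 3 smallest-p genes of each list, 5 nearest profiles per member, and adjacent or called neighbours. Chd4, Tmtc2, Pigm, Dpy19l2, genes at the ends of a range and genes named for fits without a library were added after their values were seen. Alternatives were DESeq2 1.42.0, other normalizations and filters, the replicate number as a block, removal of Lars2 and leaving out each library. The main fit was run on simulated data with a dispersion of 0.02, in which 186 of 200 genes changed 4-fold were called and 2 others. The common dispersion of these data was 0.135, so the simulation does not show how the fit performs at their spread. Shared sequence was searched with BLAST+ 2.17.0.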

Additional observations from a re-analysis of the deposited data

How the results depend on the processing

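The log2 fold changes of Adnp and Dpm1 moved by less than the spread between replicates under all 11 alternatives, within 4.14 to 4.48 and 1.81 to 2.07. That of Adnp2 ranged from -0.17 to 0.59 with each library left out. Over all genes, 160 were called higher with DESeq2, 20 with upper-quartile normalization, 283 without a filter on low counts, 29 with at least 10 counts in every library, 274 with the replicate block and 23 to 2755 with each library left out. The last number, without control IgG-IP replicate 2, and 894 when replicate 1 was left out instead come from fits whose spread rests on the TSSK2-IP libraries alone. Lower genes numbered 1 with DESeq2, 24 without a filter, 3 with the replicate block and 0 to 2688 with each library left out. Libraries of the same number are not known to be pairs. Their deviations from the group means correlated at 0.126, and the block changed the call of no member. Leaving out each library gave 0 to 2 higher and 0 to 3 lower binding partners, 0 to 1 higher and 0 to 2 lower homeobox genes, 0 to 1 higher and 0 to 2 lower supply genes, 0 to 4 higher and 0 to 5 lower users of dolichol phosphate mannose, 0 to 4 higher and 0 to 3 lower anchor genes, 0 to 2 lower neighbours of Adnp and Dpm1 and 0 to 2 higher neighbours of Adnp2. Among the users, 0 were called with upper-quartile normalization and 0 with at least 10 counts in every library (adjusted p of Pigv 0.0924 and 0.0627 from edgeR). The causes were not tested. The 2 libraries a group limit every p, and the depth of 30 to 32 control counts limits the fold of Adnp.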
